A study of Gallus gallus with 6 samples.

Results

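The genes of oxidative phosphorylation were examined in ileum, the final stretch of small intestine, from Taiping chickens aged 2 months. They were the rows of the deposited table annotated to the oxidative phosphorylation pathway of KEGG with at least 10 counts in at least 3 of the 6 libraries, and ATP5F1AW, the W-linked copy of an ATP synthase subunit, was left out. This gave 113 genes of 17623 in the table, out of 119 rows annotated to the pathway. Complex I had 43 of them, complex II 4, complex III 9, complex IV 17 and complex V 17. The vacuolar proton pump, or V-ATPase, had 18, and 5 had other or unclear roles. The FOS group comprised 3 libraries of birds that received fructooligosaccharide, a short fructose polymer fermented by gut microbes, with 1 mL added to each litre of water, on top of a corn and soybean basal diet. The control group comprised 3 libraries of birds on the basal diet alone. All 6 libraries were labelled male, and the labels name no allele and no other agent. FOS means the supplement or its group throughout, not the FOS gene.

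Oxidative phosphorylation is the chain of reactions in the inner mitochondrial membrane that turns food energy into ATP. Complex I (NADH dehydrogenase) and complex II (succinate dehydrogenase) feed electrons into ubiquinone, complex III (the cytochrome bc1 complex) passes them to cytochrome c, and complex IV (cytochrome c oxidase) hands them to oxygen. Complexes I, III and IV pump protons, and complex V (ATP synthase) lets the protons flow back and makes ATP. Most subunits are encoded in the nucleus and imported, while a small set of core subunits of complexes I, III, IV and V is encoded by mitochondrial DNA. The V-ATPase is built on a similar plan but runs the other way: it spends ATP to acidify lysosomes, endosomes and other compartments, and KEGG lists it in the same pathway.

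Each library held 14668289 to 17793586 counts in FOS and 16056240 to 18106651 counts in control. Nothing in the labels ties each library to its own bird, so the p-values below measure only the spread between these libraries. Transcripts of the W chromosome, which only hens carry, were present in 4 of the 6 libraries, although all were labelled male. HINTW had 158, 0.0697 and 111 CPM in FOS 1, 2 and 3, against 146.5, 0.173 and 149.5 CPM in control 1, 2 and 3, so FOS 2 and control 2 lacked it and each group held 2 libraries with it and 1 without. CPM (counts-per-million) is a count normalised to TMM-scaled library size. All 12 enterocyte markers were found, with summed levels of 19470.3 to 24732 CPM in FOS and 16371 to 20054 CPM in control. Markers of striated muscle, which would carry muscle isoforms of complex IV, summed to 5.17 to 7.09 CPM in FOS and 6.98 to 10.7 CPM in control over the 5 of 6 found, with MYL2 listed at 0 in every library.

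Levels of different genes were compared per transcript length, as FPKM averaged over the 6 libraries. The mitochondrially encoded genes were the most abundant class, with a median of 1145 FPKM over 13 genes, against a median of 78.7 FPKM over the 76 tested nuclear genes of complexes I to V. COX1, the catalytic subunit of complex IV, had 12335 FPKM, and ND6, a complex I subunit transcribed from the other strand of mitochondrial DNA, had 29.5 FPKM. Those 76 nuclear genes spanned 4.86 FPKM for Ndufb11 to 507 FPKM for COX6A1, a structural subunit of complex IV. Ndufb11 is an accessory subunit of complex I named from an assembled locus.

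By complex, the median level was 66.7 FPKM for complex I, 125 for complex II, 161 for complex III, 101 for complex IV and 144 for complex V, and 32.0 FPKM for the V-ATPase. Within complex IV the 4 assembly proteins COX10, COX11, COX15 and COX17, which make heme a or deliver copper, had a median of 20 FPKM, against 136 FPKM for the 10 nuclear structural subunits. ATP6V0D2, a V-ATPase stalk subunit, was the least abundant gene tested, at 0.353 FPKM.

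**Figure D1:**
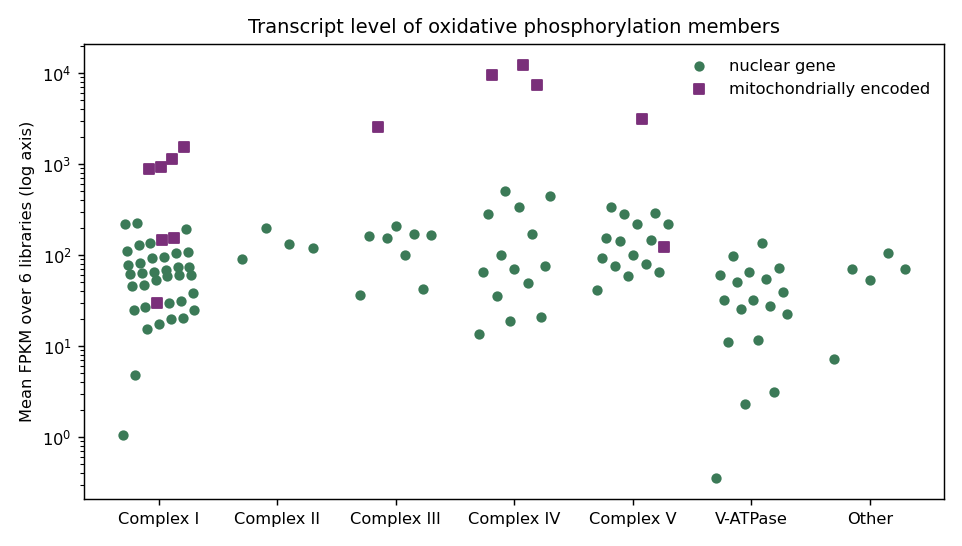
Mean FPKM of each oxidative phosphorylation gene over the 6 libraries (log axis), by complex; circles are nuclear genes and squares mitochondrially encoded ones. COX1, at 12335 FPKM, and the other complex IV squares lie far above every nuclear gene, while 16 of 18 V-ATPase genes lie under 78.7 FPKM, the median of the nuclear genes of complexes I to V.

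The comparison of FOS with control addressed how the supplement relates to ileal gene expression. No gene of oxidative phosphorylation passed edgeR's test over all genes and DESeq2 called only NDUFB8. By TMM-scaled counts, every nuclear gene of complexes I to V that was tested had a somewhat higher mean in FOS. By FPKM some means were slightly lower in FOS, among them those of NDUFA10 (59.9 against 60.8), NDUFA8 (19.5 against 19.6) and NDUFA4 (70.4 against 70.7). Of 112 genes tested, 100 had a log2 fold change above 0 and 12 below it, and the median log2 fold change was 0.25 (interquartile range 0.13 to 0.32), against 0.01 (-0.18 to 0.18) over all 13807 genes tested. Over all genes tested, 51.1% had a log2 fold change above 0. Among the 76 tested nuclear genes of complexes I to V, all 76 had one above 0 in edgeR, with a median of 0.28. In limma on log2(FPKM + 1) their median was 0.18. The 13 mitochondrially encoded genes divided into 7 above and 6 below 0, with a median of 0.02.

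With edgeR's quasi-likelihood test and Benjamini-Hochberg adjustment over all genes, 0 members were called, and 3 genes or 0.0217% of all those tested were. The adjusted p-values of the members in edgeR ran between 0.434 and 0.997. At an unadjusted p under 0.05, 18 members were higher in FOS and 0 were lower, where 5.14% of all genes tested were higher and 4.27% lower. All 3 FOS libraries lay above all 3 control libraries in 26 members, and below them in 0, against 8.58% above and 7.84% below over all genes tested. DESeq2 called 1 member, NDUFB8, at an adjusted p of 0.0409, and 149 genes in all (1.1% of those it tested, or 0.777% counting only genes higher in FOS). In these bulk samples, a difference in the number of cells of a type and one in RNA per cell cannot be told apart.

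The nuclear genes did not stand equally high in the 3 FOS libraries. Averaged over the 76 nuclear genes of complexes I to V, the log2 CPM was 6.65, 6.32 and 6.13 in FOS 1, 2 and 3, against 6.13, 6.06 and 6.09 in control 1, 2 and 3. FOS 1 stood highest, FOS 2 in between, and FOS 3 level with control 1. FOS 1 was the highest library for 63 of these 76 genes, where it was the highest for 27.2% of all genes tested. Together these genes took 1.13%, 0.934% and 0.811% of all counts in FOS 1, 2 and 3, against 0.874%, 0.801% and 0.833% in control 1, 2 and 3, so the shares of the groups overlapped.

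Without FOS 1, the median log2 fold change of the nuclear genes was 0.12, with 61 of 76 above 0, where 50.3% of all genes were. Then 9 of them had an unadjusted p under 0.05 and were higher, against 5.52% of all genes tested. In a fit of the 4 libraries with W-linked transcripts alone, the median was 0.28 and 75 of 76 lay above 0. Over all genes tested, 6972 of the 13749 kept in that fit lay above 0. The fit kept FOS 1 and FOS 3, in which the nuclear genes stood 0.56 and 0.04 above the mean of the 3 control libraries in log2 CPM. Of the 112 members, 7 were then higher at an unadjusted p under 0.05 and 1, ND4L, was lower, where 4.22% of all genes were higher. In the libraries that lacked W-linked transcripts, 70 of the 76 were higher in FOS 2 than in control 2 in log2 CPM, with a median difference of 0.26, where 50.2% of all genes tested were higher.

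**Figure D2:**
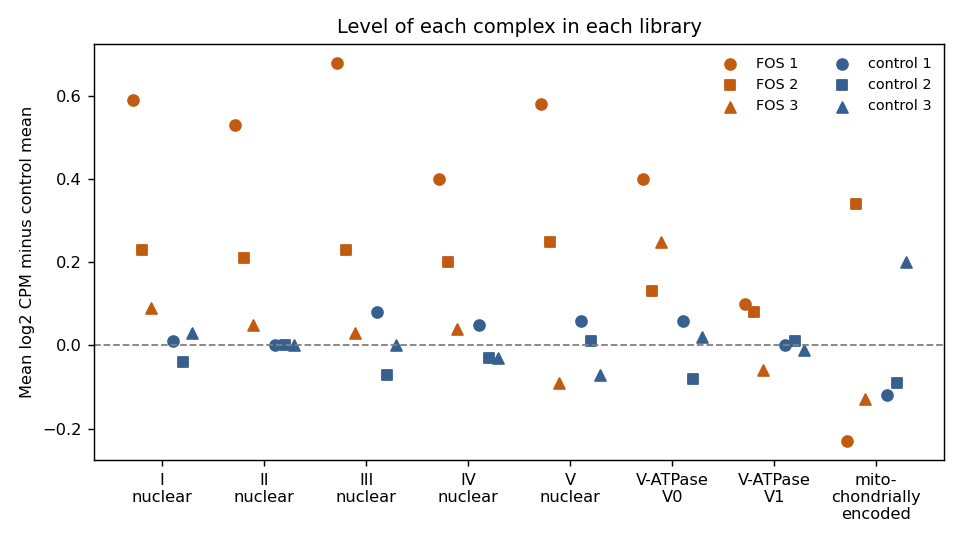
Mean log2 CPM of each class in each library minus the mean of the control libraries, with FOS (orange) left of control (blue) and the marker shape giving the library number. FOS 1 lies 0.40 to 0.68 above the control mean for the nuclear genes of each respiratory complex and FOS 3 between -0.09 and 0.09, while for mitochondrially encoded genes FOS 2 lies highest, at 0.34, and FOS 1 lowest, at -0.23.

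Markers of other cell types differed between the same libraries. The mean log2 CPM of 12 enterocyte markers was 9.14, 8.92 and 9.32 in FOS 1, 2 and 3, against 8.53, 8.53 and 8.36 in control, and 11 of 12 had a log2 fold change above 0. By summed level FOS 1 was the highest of all 6 libraries, at 24732 CPM, and FOS 1 was the highest FOS library for 7 of the 12 markers. TMPRSS15, with 0.54, 11.1 and 100.4 CPM in FOS 1, 2 and 3, against 0.721, 1.16 and 3.2 CPM in control, had the highest log2 fold change of the list, 4.45, with its highest level in FOS 3. FABP6 was the 1 marker below 0, with a log2 fold change of -1.23 and an edgeR adjusted p of 0.503. It had 4003, 1079 and 1506 CPM in FOS, against 5756, 5158 and 4529 CPM in control, so every FOS library lay below control. The mean of 12 smooth muscle markers was 7.95, 8.52 and 8.72 in FOS 1, 2 and 3, against 8.87, 8.49 and 8.98 in control, with 0 of 12 above 0. Their summed level was 4687 to 7813 CPM in FOS and 6579 to 9334 CPM in control, and it was lowest in FOS 1, the library with the highest nuclear oxidative phosphorylation genes. Of 8 matrix markers, 1 was above 0, and their sum was 3729 to 5667 CPM in FOS and 5418 to 5569.8 CPM in control. The part of these markers in the results on oxidative phosphorylation was not tested.

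Complex I takes electrons from NADH, and by TMM-scaled counts its 35 tested nuclear genes were all higher in the FOS mean. The 7 core subunits, which carry the flavin and iron-sulfur clusters, had a median log2 fold change of 0.28, and so did the 28 tested accessory subunits. At an unadjusted p under 0.05, 2 core and 8 accessory subunits were higher in FOS, where 5.14% of all genes tested were. All FOS libraries lay above all control libraries in 15 of the 42 tested genes of complex I, the mitochondrially encoded ones included, and in 8.58% of all genes tested. Without FOS 1 the median of complex I was 0.12, against 0.26 with all libraries.

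NDUFB8, an accessory subunit of the membrane arm whose protein is a common marker of assembled complex I, had 93.5, 68.1 and 66.3 CPM in FOS 1, 2 and 3, against 41.9, 44.3 and 53.4 CPM in control 1, 2 and 3. All FOS libraries lay above all control libraries. It averaged 76.0 ± 15.2 CPM in FOS and 46.6 ± 6.05 CPM in control (SD, n = 3 each), a log2 fold change of 0.71 (SE 0.17). Its adjusted p was 0.434 in edgeR and 0.0409 in DESeq2. With the replicate number as a block, DESeq2 gave an adjusted p of 0.131 and called 0.833% of all genes, and over all alternatives its adjusted p ran between 0.0409 and 0.885. Its log2 fold change was 0.53 without FOS 1 and 0.74 in the 4 libraries with W-linked transcripts.

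Other subunits of the same membrane arm followed NDUFB8 in the order of p. NDUFB4 had 87.5, 72.5 and 61.1 CPM in FOS 1, 2 and 3, against 52.6, 49.1 and 53.0 CPM in control. Its log2 fold change was 0.51 (SE 0.14), at an unadjusted p of 0.00859 and an edgeR adjusted p of 0.448. NDUFB3 had 17.4, 12.3 and 17.5 CPM in FOS, against 10.3, 5.67 and 9.38 CPM in control, with a log2 fold change of 0.89 (SE 0.27) and an edgeR adjusted p of 0.476. Both genes were above every control library in each FOS library, and NDUFB3 differed from most nuclear genes in that FOS 3 was as high as FOS 1.

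NDUFS3, a core subunit of the arm that reaches into the matrix, had 92.6, 59.2 and 57.3 CPM in FOS 1, 2 and 3, against 47.8, 40.6 and 44.8 CPM in control. The log2 fold change was 0.65 (SE 0.20), at an edgeR adjusted p of 0.479, and the groups did not overlap. The other genes of complex I with an unadjusted p under 0.05 were NDUFAB1, NDUFV3, NDUFB1, NDUFA11, NDUFB9 and the core subunit NDUFS1. Their log2 fold changes were 0.61, 0.57, 0.36, 0.33, 0.31 and 0.25, in that order. NDUFAB1 is also the mitochondrial acyl carrier protein. The smallest differences among nuclear genes of complex I were those of NDUFA10, at 0.05, and NDUFA8, at 0.08. One gene, the assembled locus MSTRG.9322 described as NDUFA11, had 0.393 to 0.675 CPM in FOS and 0.3 to 0.636 CPM in control and was too low to be tested.

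Complex II oxidises succinate and is the complex shared with the citrate cycle. All 4 subunits were higher in the FOS mean, with a median log2 fold change of 0.27 (0.15 without FOS 1), and FOS 1 was the highest library for each. SDHA, the flavoprotein that binds succinate, had 407, 344 and 316 CPM in FOS 1, 2 and 3, against 290.2, 289 and 269 CPM in control, a log2 fold change of 0.33 (SE 0.13) with an edgeR adjusted p of 0.508. SDHD, a membrane anchor, had 299, 266 and 213 CPM in FOS, against 194, 212 and 208 CPM in control, a log2 fold change of 0.34 (SE 0.14) with an edgeR adjusted p of 0.527. Neither overlapped between groups, although FOS 3 and control 2 were nearly equal for SDHD. SDHB, the iron-sulfur subunit, had 126, 96.3 and 90.7 CPM in FOS, against 89.8, 90.8 and 88.0 CPM in control, and its groups overlapped.

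In complex III, all 8 nuclear subunits were higher in the FOS mean and FOS 1 was the highest library for all 8. Their median log2 fold change was 0.34, and 0.15 without FOS 1. UQCR10, a small subunit of the complex, had 107, 82.4 and 76.8 CPM in FOS 1, 2 and 3, against 63.9, 59.1 and 64.9 CPM in control, with a log2 fold change of 0.50 (SE 0.14) and an edgeR adjusted p of 0.453. It was the 1 subunit of complex III with groups that did not overlap, where FOS lay wholly above control in 8.58% of all genes tested. UQCRQ, another small subunit, had 149.8, 97.1 and 79.8 CPM in FOS, against 80.4, 78.2 and 70.6 CPM in control. Its groups overlapped only in that FOS 3 lay just under control 1. UQCRFS1, the Rieske iron-sulfur protein, had 300.3, 249 and 207 CPM in FOS, against 196, 204 and 209.6 CPM in control, a log2 fold change of 0.31 (SE 0.15). UQCRB, the least abundant subunit of the complex per length, had 76.7, 57.6 and 53.5 CPM in FOS and 70.0, 55.4 and 56.2 CPM in control, and its log2 fold change was 0.05, or -0.12 without FOS 1.

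In complex IV, the 10 nuclear structural subunits had a log2 fold change of 0.22 in the median (0.10 without FOS 1), and the 4 assembly proteins one of 0.25 (0.23 without FOS 1). COX7A2L, which is known for joining complexes III and IV into supercomplexes, had 76.4, 73.0 and 64.1 CPM in FOS 1, 2 and 3, against 62.0, 55.0 and 56.3 CPM in control. The log2 fold change was 0.30 (SE 0.11), at an edgeR adjusted p of 0.501, with no overlap between groups. COX11, which helps insert copper, had 33.3, 30.5 and 34.8 CPM in FOS, against 28.8, 25.4 and 24.9 CPM in control, a log2 fold change of 0.32 (SE 0.12) with an edgeR adjusted p of 0.503. Here the highest library was FOS 3, and the log2 fold change was 0.31 without FOS 1.

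The row named COX4I2 in the table, which RefSeq lists as COX4I1, had 422, 365 and 364 CPM in FOS 1, 2 and 3, against 347, 308 and 304 CPM in control. The groups did not overlap, and the log2 fold change was 0.26 (SE 0.12), at an edgeR adjusted p of 0.555. COX6A1, the most abundant nuclear subunit, had 328, 334 and 295 CPM in FOS, against 304, 277 and 312 CPM in control, a log2 fold change of 0.10 with overlapping groups. NDUFA4, an older complex I name for a subunit of complex IV, had 72.5, 81.4 and 79.6 CPM in FOS, against 73.4, 75.5 and 74.5 CPM in control, a log2 fold change of 0.06. COX6A1 and NDUFA4 were highest in FOS 2, unlike most nuclear subunits, which were highest in FOS 1. COX7A2 had 141, 94.3 and 74.7 CPM in FOS, against 98.4, 89.5 and 84.6 CPM in control. Its log2 fold change was 0.18, or -0.10 without FOS 1.

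Complex V makes ATP, and its 15 nuclear subunits were all higher in the FOS mean, with a median log2 fold change of 0.27. Without FOS 1 this median was 0.04, with 9 of 15 above 0. ATP5F1B, the catalytic beta subunit, had 1249.8, 799.7 and 677 CPM in FOS 1, 2 and 3, against 793, 677 and 785 CPM in control, and its log2 fold change was 0.27 with all libraries and -0.02 without FOS 1. ATP5MC3, which codes for the ring subunit c, had 211, 109.6 and 101 CPM in FOS, against 128, 103 and 108 CPM in control. In both genes FOS 2 and FOS 3 lay within or near the range of control.

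ATP5PF, the coupling factor of the side stalk, had 117, 88.7 and 80.5 CPM in FOS 1, 2 and 3, against 70.0, 70.4 and 71.1 CPM in control. The control libraries were nearly equal, every FOS library lay above them, and the log2 fold change was 0.44 (SE 0.15) with an edgeR adjusted p of 0.483. ATP5PD, another stalk subunit, had 232, 228 and 225 CPM in FOS, against 188, 206 and 186 CPM in control, a log2 fold change of 0.24 (SE 0.10) with an edgeR adjusted p of 0.527. ATP5PD was close to level over the 3 FOS libraries, and its log2 fold change was 0.23 without FOS 1. ATP5MF, a membrane subunit, had 108, 78.3 and 59.0 CPM in FOS, against 60.7, 57.6 and 58.2 CPM in control, so FOS 3 lay within the control range. ATP5E, the least abundant gene of complex V per length, had 17.6, 17.8 and 17.7 CPM in FOS. In control it had 16.6, 15.8 and 18.2 CPM, and its log2 fold change was 0.07 with overlapping groups.

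**Figure D3:**
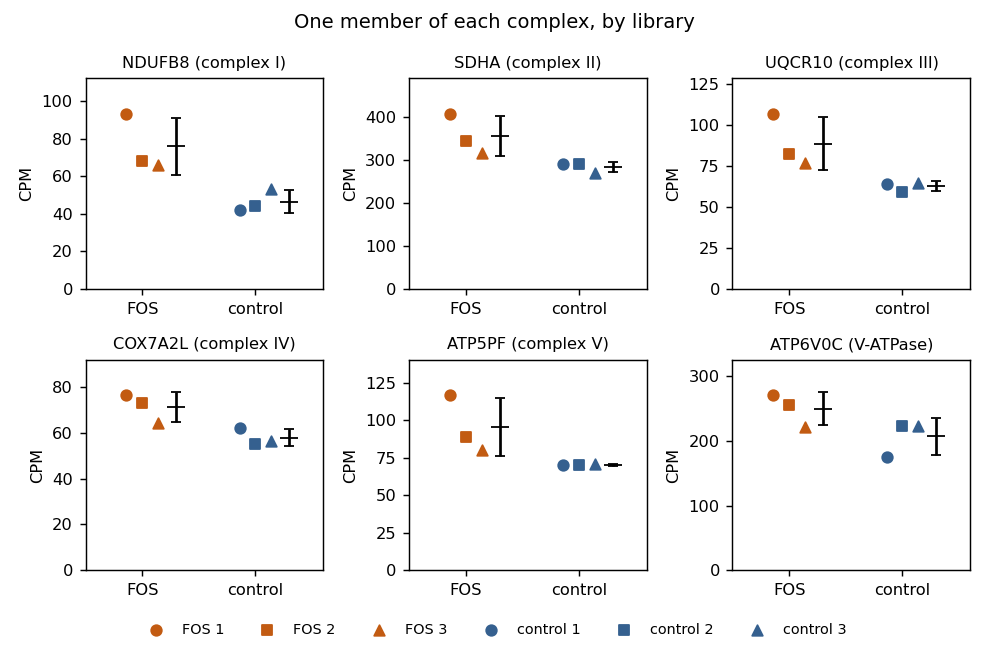
CPM per library of a member of each complex, with FOS left of control and the mean and SD (n = 3) beside the points; axes start at 0. The genes shown for complexes I to V have the smallest unadjusted p in edgeR of their complex, so they do not show a typical member. FOS 1 is the highest library in every panel, and the groups overlap only for ATP6V0C, for which FOS 3 had 222 CPM and control 2 and 3 had 223 CPM each. Of the 112 members tested, the groups overlapped in 86, and FOS lay wholly above control in 26, against 8.58% of all genes tested.

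The mitochondrially encoded genes showed another order of libraries. They took 3.93%, 4.99% and 4.05% of all counts in FOS 1, 2 and 3, against 3.94%, 3.77% and 4.71% in control 1, 2 and 3, so the groups overlapped. Of the 13 genes, 8 were highest in FOS 2 and 7 were lowest in FOS 1, where these libraries were highest for 15.9% and lowest for 28.1% of all genes tested. None of the 13 had an unadjusted p under 0.05 in edgeR, and none was called by DESeq2. Over all genes tested, 5.14% were higher and 4.27% lower at that p, and DESeq2 called 1.1%. For 13 genes, counts of 0 are near these shares. The median log2 fold change of 0.02 was 0.10 without FOS 1, -0.26 without FOS 2 and -0.28 in the 4 libraries with W-linked transcripts. In the libraries that lacked them, all 13 were higher in FOS 2 than in control 2, by a median of 0.41 in log2 CPM.

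COX1 was the 1 mitochondrially encoded gene of 13 whose groups did not overlap. All FOS libraries lay above all control libraries in 8.58% of all genes tested, so 1 such gene is near that share. It had 21701, 22530.2 and 19150.3 CPM in FOS 1, 2 and 3, against 16435, 16316 and 18771 CPM in control, a log2 fold change of 0.30 (SE 0.20) with an edgeR adjusted p of 0.683. COX1 alone took 2.06%, 2.20% and 1.92% of counts in FOS, against 1.70%, 1.63% and 1.94% in control. By that unscaled share the groups overlapped, since FOS 3 lay under control 3. COX3, which also belongs to the core of complex IV, had 6247, 9480 and 7119 CPM in FOS, against 6512, 6112 and 8629 CPM in control, and COII had 5527, 5381 and 4299 CPM in FOS, against 4528, 4671 and 5790 CPM in control.

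The complex I genes of mitochondrial DNA and CYTB, the cytochrome b of complex III, were low in FOS 1. CYTB had 1659, 3948 and 2783 CPM in FOS 1, 2 and 3, against 2986, 2970.3 and 3226 CPM in control, so FOS 1 was the lowest and FOS 2 the highest of all 6 libraries. ND2 had 501, 1111 and 867 CPM in FOS, against 957, 1080.2 and 1272 CPM in control. Its log2 fold change of -0.42 (SE 0.28) was the lowest of all 112 genes, at an edgeR adjusted p of 0.691. ND1, ND4 and ND5 had the same lowest library, with 1102, 1203 and 1131 CPM in FOS 1.

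ND3 had 38.2, 93.9 and 42.7 CPM in FOS 1, 2 and 3, against 41.1, 48.3 and 56.7 CPM in control, and ND4L had 29.2, 61.3 and 34 CPM in FOS, against 39.3, 43.3 and 50.6 CPM in control. Both were highest in FOS 2 and lowest in FOS 1. ND6 was an exception among the complex I genes, with 17.6, 15.4 and 15.4 CPM in FOS and 14.8, 12.3 and 16.8 CPM in control. In complex V, ATP6 had 2335, 2508 and 1867 CPM in FOS, against 1851, 1672 and 2533 CPM in control, and ATP8 had 26.4, 23.1 and 16.3 CPM in FOS, against 14.2, 16.2 and 24.9 CPM in control. For both, control 3 was close to FOS 1 and FOS 2 and well above the other control libraries. The reading frames of ATP8 and ATP6, and those of ND4L and ND4, overlap, so reads on the shared stretch cannot be assigned to either with certainty.

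**Figure D4:**
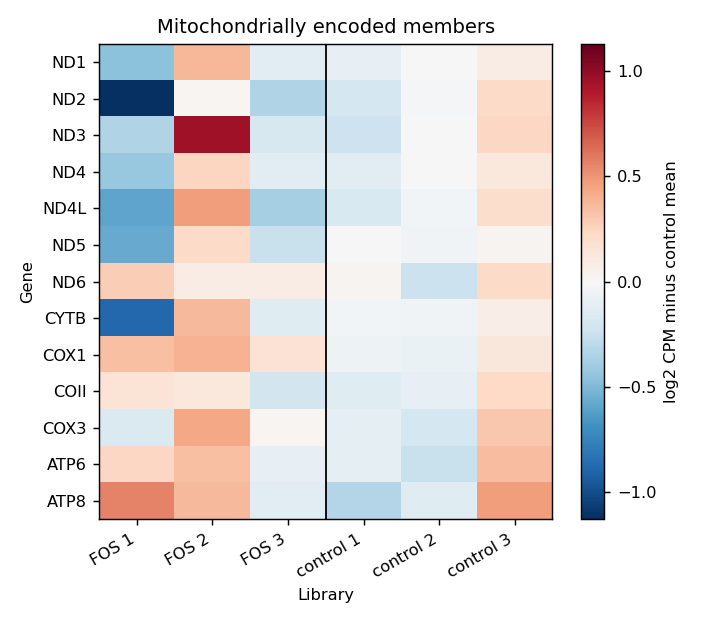
Log2 CPM of each mitochondrially encoded gene in each library minus its mean over the control libraries, with FOS columns left of control columns. CYTB and the ND genes other than ND6 are low (blue) in FOS 1 and most genes are high (red) in FOS 2, while COX1 is above 0 in all 3 FOS libraries.

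With all libraries, the V-ATPase had a lower median log2 fold change than each respiratory complex. That contrast was not tested and was narrower without FOS 1. The median was then 0.07 for the V-ATPase. It was 0.08 for complex V, 0.12 for complexes I and IV, 0.14 for complex III and 0.15 for complex II. Those of complexes I, III, IV and V include mitochondrially encoded genes, while the V-ATPase has none. For nuclear genes alone, the median without FOS 1 was 0.04 in complex V, under that of the V-ATPase, and 0.12 over complexes I to V. Of the 18 V-ATPase genes, 12 were higher in the FOS mean, and the median log2 fold change was 0.09. In edgeR 0 had an unadjusted p under 0.05, where 5.14% of all genes tested were higher and 4.27% lower. In 1 gene the groups did not overlap. Over all genes tested, all FOS libraries lay above all control libraries in 8.58% and below them in 7.84%. The row named RPL26, which may be a V-ATPase gene, is not among the 18. The 8 genes of the V0 sector, the membrane part that carries protons, had a median of 0.22 with 7 above 0. The 9 genes of the V1 sector, the part in the cytosol that splits ATP, had a median of 0.00 with 4 above 0. Without FOS 1 the medians were 0.13 for V0 and 0.03 for V1, and the difference between the sectors was not tested.

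ATP6V0C, the proton-carrying ring subunit and the most abundant V-ATPase gene per length at 136 FPKM, had 271, 256 and 222 CPM in FOS 1, 2 and 3, against 175, 223 and 223 CPM in control. Its log2 fold change was 0.27 (SE 0.14) at an edgeR adjusted p of 0.615. ATP6V1E1, a stalk subunit, was the 1 gene with groups apart, with 70.5, 47.4 and 46.3 CPM in FOS, against 42.5, 45.3 and 42.2 CPM in control. ATP6V0D2 had the highest log2 fold change of all members, 1.3 (SE 0.64) with 0.593 as edgeR's adjusted p, but at 1.15, 0.348 and 1.07 CPM in FOS, against 0.601, 0.173 and 0.267 CPM in control, it rested on few counts.

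Several V-ATPase subunits exist as isoforms. Of the a subunits, ATP6V0A1 had 132, 86.4 and 109 CPM in FOS 1, 2 and 3, against 92.3, 93.1 and 87.2 CPM in control, a log2 fold change of 0.26. ATP6V0A2 had 96.7, 97.5 and 102 CPM in FOS, against 107, 100.1 and 117 CPM in control, a log2 fold change of -0.13. TCIRG1, known for acid secretion by osteoclasts in mammals, had 54.3, 64.3 and 54.6 CPM in FOS, against 53.3, 50.1 and 58.2 CPM in control. The differences of these 3 isoforms thus lay on both sides of 0, and none had an unadjusted p under 0.05. Of the C subunits, ATP6V1C1 was the more abundant per length, at 27.7 FPKM against 3.11 FPKM for ATP6V1C2, with log2 fold changes of 0.07 and -0.11.
ATP6V0D1 had a log2 fold change of 0.19, ATP6V1B2 one of 0.13 and ATP6V1G1 one of 0.08, each with overlapping groups.

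The last 5 genes are the inorganic pyrophosphatases PPA1, PPA2 and LHPP, a row named RPL26 and the locus MSTRG.12158, with a median log2 fold change of 0.16. PPA1, the cytosolic pyrophosphatase, had 178, 127 and 98.1 CPM in FOS 1, 2 and 3, against 112, 143 and 144 CPM in control, and its log2 fold change was 0.01. LHPP had 9.25, 13 and 10.6 CPM in FOS, against 10.9, 9.25 and 9.33 CPM in control. The row named RPL26 had 109, 118 and 105 CPM in FOS, against 73.6, 94.1 and 90.3 CPM in control, a log2 fold change of 0.36 (SE 0.12) with an edgeR adjusted p of 0.483. Its groups did not overlap and FOS 2 was its highest library. In RefSeq the gene ID of that row belongs to ATP6V0E1, a V-ATPase subunit. Its KEGG identifier is also the one that ATP6V0E2, of the V0 sector, carries. Only the name and description are those of a ribosomal protein. It was counted in no complex, so the V-ATPase counts above leave it out, although its unadjusted p in edgeR was 0.0209.

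**Figure D5:**
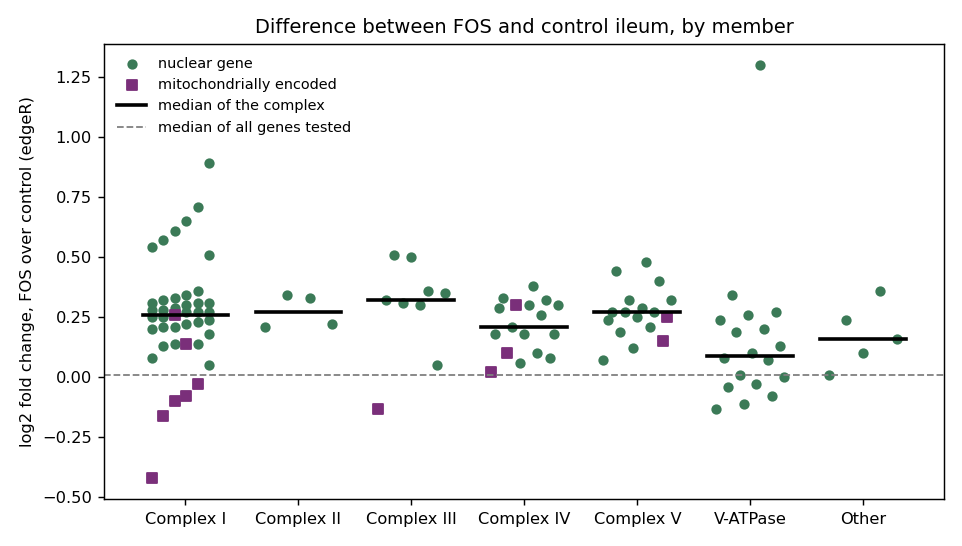
Log2 fold change (FOS over control, edgeR) of each of the 112 tested genes, by complex; circles are nuclear genes, squares mitochondrially encoded ones, bars the median of each complex and the dashed line the median of all genes tested (0.01). Every circle of complexes I to V lies above 0, the squares lie on both sides, and the V-ATPase centres on 0.09.

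Of the members, 4 lie on the Z chromosome in RefSeq (NDUFS4, COX7C, ATP5A1Z and ATP5ME), a chromosome that males carry as a pair and hens singly. COX7C had 48.7, 57.1 and 29.6 CPM in FOS 1, 2 and 3, against 33.8, 56.8 and 28.8 CPM in control. ATP5A1Z, the alpha subunit of complex V, had 479, 672 and 289.6 CPM in FOS, against 342, 536 and 313 CPM in control. ATP5ME had 44.1, 66.4 and 29.1 CPM in FOS, against 29.0, 49.4 and 27.2 CPM in control. In these 3 genes, FOS 2 and control 2, the libraries without W-linked transcripts, lay above the other 4 libraries, as they did in 5 of 112 members and in 6.16% of all genes tested. They lay below the other 4 in 1 member, COX6C, where 4.89% of all genes did. NDUFS4 had 33.1, 33.5 and 10.8 CPM in FOS, against 17.8, 31.9 and 14.2 CPM in control. FOS 2 was its highest library, but FOS 1 lay above control 2. With presence of W-linked transcripts as a covariate, edgeR called 0 members and 3 genes in all. In that fit 14 members were higher at an unadjusted p under 0.05, but the share over all genes was not taken. The median log2 fold change over all members was then 0.24. With the replicate block, 17 members were higher at an unadjusted p under 0.05, where 4.93% of all genes were. How the authors' counting divided reads between ATP5A1Z and its W-linked copy ATP5F1AW was not measured here, so the level of ATP5A1Z is uncertain.

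Genes that serve the complexes without being part of them were looked up in lists chosen with earlier results of these data known. Of 41 assembly factors tested, among them COX7A2L, 32 had a log2 fold change above 0, 7 were higher at an unadjusted p under 0.05 and 0 lower, and 0 were called by edgeR or DESeq2. Over all genes, 51.1% lay above 0, and 5.14% were higher and 4.27% lower at that p. The median of the list was 0.19, and 0.17 without FOS 1. SDHAF2, which attaches the flavin to SDHA, had 39.2, 36.7 and 31.6 CPM in FOS 1, 2 and 3, against 25.8, 22 and 24.9 CPM in control, a log2 fold change of 0.56 (SE 0.13) with 0.434 as edgeR's adjusted p. SCO2, a copper chaperone of complex IV, had 21.1, 22.9 and 18.8 CPM in FOS, against 13.8, 14.8 and 15.1 CPM in control, a log2 fold change of 0.52 (SE 0.14) with 0.441 as edgeR's adjusted p. In both genes all FOS libraries were above all control libraries, and without FOS 1 the log2 fold changes were 0.50 and 0.52. COX18, which inserts COII into the membrane, was the lowest of the list at -0.36, followed by NDUFAF4 at -0.30.

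Of 25 genes of mitochondrial biogenesis and mitochondrial DNA upkeep, 12 had a log2 fold change above 0, with a median of -0.01, and 1 was higher at an unadjusted p under 0.05, with 0 called by edgeR or DESeq2. These counts are near the shares over all genes, of 51.1% above 0 and 5.14% higher at that p. The gene with the smallest p was MTERF3, a regulator of mitochondrial transcription, with 31.1, 26.3 and 34.7 CPM in FOS 1, 2 and 3, against 18.6, 25.4 and 18 CPM in control. Its log2 fold change was 0.57 and that of TFB1M, an rRNA methyltransferase, 0.39. At the other end were PPARA, a nuclear receptor of lipid oxidation, at -0.37 and POLG2, a subunit of the mitochondrial DNA polymerase, at -0.34. TFAM, which packages mitochondrial DNA, had 57.8, 57.5 and 52.2 CPM in FOS, against 58.8, 61.8 and 59.5 CPM in control. Its log2 fold change was -0.10, at an edgeR adjusted p of 0.777. All 3 FOS libraries lay below control for TFAM, as they did in 2 of the 25 genes, near the 7.84% of all genes tested.

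Of 27 carriers and electron donors tested, 24 had a log2 fold change above 0, with a median of 0.17, and 1 was higher at an unadjusted p under 0.05, where 5.14% of all genes were, with 0 called by edgeR or DESeq2. Without FOS 1, 16 of the 27 lay above 0 and the median was 0.09. COQ4, of ubiquinone synthesis, had 67.8, 68.4 and 56.8 CPM in FOS 1, 2 and 3, against 54.0, 55.0 and 51.4 CPM in control, with no overlap between groups. DHODH, which feeds electrons from pyrimidine synthesis into ubiquinone, had a log2 fold change of 0.35, and PDSS2 and COQ6, both of ubiquinone synthesis, had -0.12 and -0.05. CYCS, the cytochrome c that links complexes III and IV, had 106, 53.6 and 45.1 CPM in FOS, against 54.4, 47.3 and 47.8 CPM in control, and its log2 fold change was 0.45 with all libraries and -0.01 without FOS 1.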

How the data were processed

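Total RNA of 6 ileum libraries was sequenced; per the labels' protocols the kit named is one for small RNA, yet the rows hold every kind of gene. Among tools, per the submitters' processing notes, were DESeq2, StringTie, HISAT2, Bowtie2 and fastp 0.18.0. The way reads were counted and the genome build used were not given in the sources used here. The authors deposited expected counts (estimated counts, 8.062% of them not whole) and FPKM for 17623 rows. The table's 12 further value columns, of 6 other libraries, were not used. Counts were rounded, filtered with filterByExpr (13807 genes kept), scaled by TMM and compared by edgeR 4.0.16 (quasi-likelihood test, no covariates, run under R 4.3.3). Adjustment was by Benjamini-Hochberg over all genes at 0.05. CPM use TMM-scaled library sizes, and mean log2 CPM a prior count of 1. SE is the size of the log2 fold change over the root of the F statistic. The biological coefficient of variation, common to all genes, was 24.6%. The test was tested on simulated data.

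Members and lists were chosen with earlier results of these data known. Members were placed by Symbol and Description; 104 were named by the table, 6 by RefSeq (assembly GRCg7b, used for names and chromosomes only) and 3 stayed unnamed. Named were, per complex, the 3 smallest p, the highest and lowest FPKM, DESeq2 calls, mitochondrially encoded genes and isoform pairs, and, per list, the 2 smallest p in each direction, 49 members and 12 list genes in all. The other genes named were chosen after their values were seen. Marker lists were enterocyte, smooth muscle, matrix, striated muscle, T cell (mean log2 CPM 6.32, 6.54 and 6.27 in FOS, against 6.59, 6.60 and 6.74 in control) and macrophage (4.81, 5.06 and 4.34 in FOS, against 4.87, 4.73 and 5.17 in control).

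The titles number the replicates. Libraries of the same number deviated together from their group means, with correlations of 0.243, 0.413 and 0.212. Libraries of different numbers were not compared. The highest value joins FOS 2 and control 2, the libraries without W-linked transcripts. These correlations thus cannot settle whether the numbers mark pairs, and the labels do not explain the numbers. The main test used no block, and the replicate number entered only as an alternative. The alternatives tried were upper-quartile and RLE factors, other library sizes, no or a stricter filter, DESeq2 1.42.0, limma 3.58.1 (voom, and on log2(FPKM + 1) or log2(FPKM + 0.1)), the replicate block, W-linked transcripts as a covariate or a restriction (a library holds them where HINTW exceeds 10 CPM), and each library left out in turn.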

Additional observations from a re-analysis of the deposited data

How the results depend on the processing

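Of 13807 genes tested, edgeR called 3. DESeq2 called 149, DESeq2 with the replicate block 115, and limma-voom 1, and edgeR called 0 to 4 with each library left out in turn (0 without control 1 or control 3). Among the members DESeq2 called 1, NDUFB8, while edgeR called 0 under each alternative and 0 with each library left out. The count of members higher at an unadjusted p under 0.05 was 18 with all libraries. It was 7 in the 4 libraries with W-linked transcripts and 8 in limma on log2(FPKM + 1) or log2(FPKM + 0.1). With each library left out it was 7 to 31: 10 without FOS 1, 31 without FOS 3, and 9, 7 and 8 without control 1, 2 and 3. Over all genes, 5.14% were higher with all libraries, 5.52% without FOS 1 and 4.22% in the 4 libraries with W-linked transcripts. For the other fits named here the share over all genes was not taken, so their counts cannot be set against it. The count above 0, 100 with all libraries, was 88 to 104 with each library left out. With each library left out, the median log2 fold change ran between 0.10 (without FOS 1) and 0.36 over all members, between 0.12 and 0.36 in complex I, between 0.08 (without FOS 1) and 0.43 in complex V and between 0.01 and 0.24 in the members outside the complexes. That of the mitochondrially encoded genes ran between -0.26 (without FOS 2) and 0.14, and was -0.28 in the 4 libraries with W-linked transcripts. The V-ATPase median was 0.02 in limma with either pseudocount. The cause of these shifts was not tested.

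With the replicate block, edgeR called 3 genes and 0 members, 17 members were higher at an unadjusted p under 0.05 and the median was 0.23. Over all genes, 4.93% were higher at that p in this fit. Apart from the loss of NDUFB8 in DESeq2, the block changed no call among the members. Of 911 values of 48 named members under 19 alternatives, 39 had the other sign, spread over 17 members. A count minimum of 5 or 20 in place of 10 gave 116 or 111 members. Low genes such as ATP6V0D2, with under 2 CPM in every library, rest on few counts.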

Other observations

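Some pathway genes were under the count minimum. ATP6V0A4, a V-ATPase a subunit known in mammals from acid-secreting cells of the kidney, had 56, 7 and 30 counts in FOS 1, 2 and 3, against 5, 6 and 5 counts in control. ATP6V1G3 had 14, 1 and 8 counts in FOS, against 5, 2 and 1 counts in control. For both, FOS 1 and FOS 3 were the highest libraries. The gastric proton pump genes were close to absent, with 0, 1 and 0 counts of ATP4B in FOS and 0, 0 and 1 counts in control, while ATP12A, a related pump, had 0, 5 and 5 counts in FOS and 1, 8 and 2 counts in control.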
